A study of Schizosaccharomyces pombe with 4 samples.

Results

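The CRAC data of fission yeast (Schizosaccharomyces pombe) were searched for cDNAs that fell on annotated noncoding RNAs, that is, for every row on chromosomes I to III whose list of genes held a noncoding RNA (SPNCRNA), a small nuclear RNA (SPSNRNA) or a small nucleolar RNA (SPSNORNA) and neither a ribosomal RNA nor a tRNA. The rule found 4568 of 61252 cDNAs, which named 304 different RNAs. CRAC crosslinks protein to RNA in living cells with UV light, purifies the tagged protein under denaturing conditions and sequences the RNA fragments that stay attached. The tagged strain carried mkt1-HTP-KanR, in which the tag for purification is joined to Mkt1 at its own gene. The control strain had no tagged protein. Both were h+ strains with ade6-210, leu1-32, ura4D18 and the reporter otr1R(Sph1):ade6+, and both were growing exponentially at 32 °C, in PMG without tryptophan, when they were irradiated for 42.5 s. Each group had 2 libraries, which the study calls biological replicates.

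Noncoding RNAs of fission yeast are of several kinds. Small structural RNAs include the spliceosomal U RNAs, the U3 and other nucleolar RNAs that guide processing or modification of ribosomal RNA, and 7SL, the RNA of the signal recognition particle. Most of the others are long transcripts annotated from RNA sequencing, many of them on the opposite strand of a protein-coding gene, and the prl genes were named as polyadenylated RNAs without a long open reading frame. Some long RNAs repress a neighbouring gene or recruit the RNA elimination machinery. Mkt1 is known from budding yeast and trypanosomes as a post-transcriptional regulator that works with the Pbp1/ataxin-2 family, so the comparison asks which of these RNAs were recovered with Mkt1 more than from cells with no tag.

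The libraries held 24468 and 26899 cDNAs for Mkt1-HTP, with 1743 and 8142 for the control. Only 302 and 1124 control cDNAs lay outside rRNA, that is, named no rRNA gene. These still held cDNAs of the ribosomal DNA repeat. Over all copies in the repeat, SPNCRNA.1095 had 71 and 131 of them and SPNCRNA.1094 had 2 and 88. One cDNA was therefore worth 40.9 and 37.2 counts per 1000000 cDNAs (CPM) in the Mkt1-HTP libraries, but 574 and 123 CPM in the control libraries. For an RNA with no cDNA, a count of 0 allowed a share of up to 0.172% in control replicate 1 and 0.0368% in control replicate 2, against 0.0123% and 0.0112% in Mkt1-HTP. Intervals and limits here cover counting error only. They take each cDNA as an independent draw, although many cDNAs had near-identical ends, so they may be too narrow.

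The sequences of the places where cDNAs piled up show what kinds of site were involved. Each is a window of 41 bases around the base covered by most cDNAs of that RNA, read 5′ to 3′ on the strand of the cDNAs, from the RefSeq genome ASM294v3. The first 4 show recovery on genomic runs of A, with runs of 15 or more in capitals. They belong to cDNAs opposite to SPNCRNA.1035 (I:4911429-4911469, minus strand), to SPNCRNA.1065 itself (I:5271431-5271471, minus), to cDNAs opposite to SPNCRNA.1639 (II:3777546-3777586, minus) and to cDNAs opposite to SPNCRNA.1411 and SPNCRNA.338 (II:1104939-1104979, minus).
SPNCRNA.1035, opposite strand: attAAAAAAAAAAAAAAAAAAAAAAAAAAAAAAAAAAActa
SPNCRNA.1065: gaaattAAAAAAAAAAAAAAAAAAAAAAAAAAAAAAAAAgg
SPNCRNA.1639, opposite strand: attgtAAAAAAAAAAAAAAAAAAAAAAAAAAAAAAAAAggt
SPNCRNA.1411 and SPNCRNA.338, opposite strand: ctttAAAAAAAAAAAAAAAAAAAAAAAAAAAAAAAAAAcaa

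The next windows have no such run. They belong to 5 RNAs with many cDNAs on their own strand and to SPNCRNA.1368, shown for its deleted base. The 5 are the 2 RNAs in the ribosomal DNA repeat, SPNCRNA.1095 (III:24191-24231, minus) and SPNCRNA.1094 (III:23674-23714, minus), then prl53 (I:4009128-4009168, minus), prl3 (I:237236-237276, minus) and snu3 (I:987792-987832, minus), and the window of SPNCRNA.1368 is II:538355-538395 (minus). Capitals mark bases missing from at least 5 cDNAs and from at least 10% of those that cover them, since reverse transcription can skip a crosslinked base.
SPNCRNA.1095: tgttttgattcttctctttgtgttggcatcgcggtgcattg
SPNCRNA.1094: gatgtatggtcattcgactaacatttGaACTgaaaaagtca
prl53: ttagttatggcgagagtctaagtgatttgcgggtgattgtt
prl3: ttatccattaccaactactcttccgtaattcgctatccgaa
snu3: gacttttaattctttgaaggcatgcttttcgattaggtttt
SPNCRNA.1368: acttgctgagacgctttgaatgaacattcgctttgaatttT

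Most rows that named a noncoding RNA belonged, by strand, to a protein-coding gene. There were 2437 and 1930 such rows in Mkt1-HTP, while the control had 62 and 139, or 9.96% and 7.17% against 3.56% and 1.71% of the library. The Mkt1-HTP libraries were higher by 5.94 percentage points on average (8.57% ± 1.97 against 2.63% ± 1.31, SD, n = 2 each; exact permutation test, two-sided, p = 0.33, the smallest that 2 libraries against 2 allow). The order of the means turned when cDNAs that named an rRNA gene were left out of the denominator. The shares were then 15.5% and 13.6% in Mkt1-HTP, while the control had 20.5% and 12.4%.

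In Mkt1-HTP, 85.3% and 85.8% of the rows also named a protein-coding gene, compared with 58.1% and 37.4% in the control. The share that named no protein-coding gene was 14.7% (95% Wilson interval 13.4 to 16.2) and 14.2% (12.8 to 15.9) in Mkt1-HTP. In the control it was 41.9% (30.5 to 54.3) and 62.6% (54.3 to 70.2). The control libraries were both above the Mkt1-HTP libraries, by 37.8 percentage points on average in a test that cannot go lower (exact permutation test, two-sided, p = 0.33). Without rows that named met26 or ser3, the shares were 33.8% and 31.8% against 54.2% and 65.4%.

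By strand, 1863 and 1445 rows of Mkt1-HTP, against 22 and 47 of the control lay on the strand of a coding gene, with the noncoding RNA on the opposite strand or not placed. A noncoding RNA lay on the strand of the cDNA with no coding gene there in 341, 269, 34 and 84 rows of Mkt1-HTP replicates 1 and 2 and control replicates 1 and 2. An RNA and a coding gene shared the strand in 165, 153, 6 and 3 rows. No named gene was on the strand in 65, 61, 0 and 5 rows. The first kind led in Mkt1-HTP and the kind with the RNA alone on the strand led in the control.

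**Figure D1:**
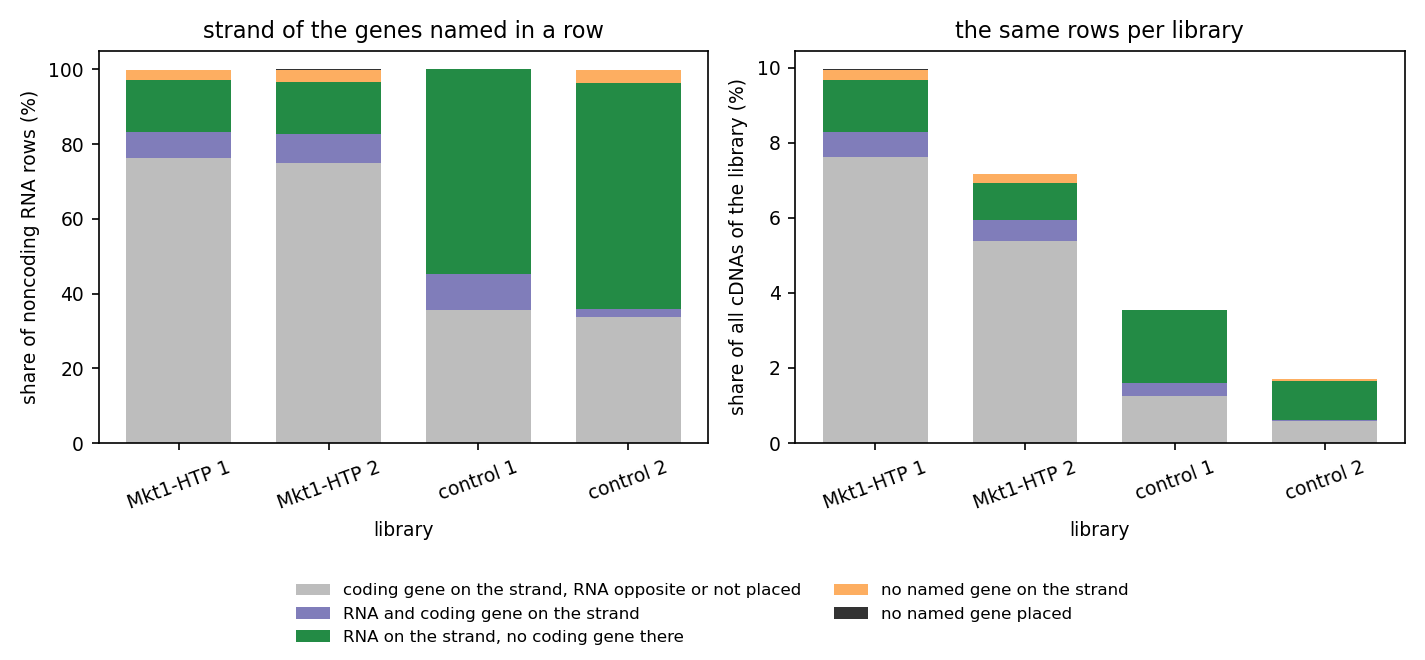
Stacked bars give the share of noncoding RNA rows (left axis, %) and of all cDNAs of the library (right axis, %) in each of the 4 libraries, by the strand of the genes that the row names. The grey part, a coding gene on the strand, fills 76.4% and 74.9% of the rows in Mkt1-HTP, while the control had 35.5% and 33.8%.

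Pairs of a coding gene and an RNA opposite to it made up the bulk of the noncoding rows. The leading pair was met26, the methionine synthase gene, with SPNCRNA.743 (I:1481083-1482570, minus strand). It gave 839 and 644 cDNAs in Mkt1-HTP, while the control had 7 and 3. All 1493 were on the strand of met26, and SPNCRNA.743 had 0 cDNAs on its own strand. They were 57.5% of the 2595 cDNAs of met26, and all of them overlapped the RefSeq extent of SPNCRNA.743.

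The serine synthesis gene ser3 came second, opposite to SPNCRNA.1140 (III:468550-470462, plus strand), with 537 and 420 cDNAs in Mkt1-HTP, while the control had 7 and 3. Here too, all 967 were on the coding strand and 0 on that of the RNA. Rows on the strand of met26 or ser3 were 53.9% of all noncoding RNA rows (56.5% and 55.1% in Mkt1-HTP, 22.6% and 4.32% in the control). The thiamine synthesis gene nmt1 followed, with SPNCRNA.1234 (III:1837499-1840092, minus strand) opposite to it, at 45, 32, 3 and 0 cDNAs on the nmt1 strand. SPNCRNA.1234 had 3 cDNAs of its own, all in Mkt1-HTP. The alcohol dehydrogenase gene adh1 carried all 70 cDNAs that named SPNCRNA.2001 and SPNCRNA.2002 (25, 43, 0 and 2), and nmt1 all 38 that named SPNCRNA.504. Those 3 RNAs were not placed, so their own strand is not known here.

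The smaller pairs were counted together with these. Of 148 RNAs that were named opposite to a coding gene on the strand of the cDNA, 139 (93.9%) had 0 cDNAs on their own strand. Having none was usual, since only 115 (1.59%) of all 7243 noncoding RNAs of the RefSeq annotation had a cDNA on their own strand. The release used for the files held fewer RNAs, so 1.59% is too low as a background. The 148 were picked by cDNAs of the opposite strand, so the share cannot be read as a trait of these pairs. The coding genes on the strand numbered 171, of which 24 had 10 or more such rows. Over all 278 RNAs that could be placed, 163 had no cDNA on their own strand in any library and 115 had at least 1.

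Once each cDNA was given to the gene of its own strand, the shares of noncoding RNAs in the groups overlapped. A noncoding RNA was the only named gene on the strand for 336 and 263 cDNAs in Mkt1-HTP and for 32 and 82 in the control. As shares of the library these were 1.37% (95% Wilson interval 1.23 to 1.53) and 0.978% (0.867 to 1.1) against 1.84% (1.3 to 2.58) and 1.01% (0.812 to 1.25). The groups overlapped, with a mean difference of -0.246 percentage points (exact permutation test, two-sided, p = 0.667). A large part came from SPNCRNA.1094 and SPNCRNA.1095, which lie in the ribosomal DNA repeat. There, cDNAs of a longer transcript of the same strand would be counted too. Without both RNAs, a removal chosen after seeing the data, the shares were 0.744% and 0.569% against 1.09% and 0.442%. With both RNAs kept but rRNA left out of the denominator, the shares were 2.13% and 1.86% in Mkt1-HTP, while the control had 10.6% and 7.3%, and the groups did not overlap. By name, SPNCRNA identifiers gave 303, 236, 27 and 52 of these cDNAs, SPSNRNA identifiers 21, 11, 0 and 19, and SPSNORNA identifiers 12, 16, 5 and 11.

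These cDNAs were spread over 88 RNAs, of which 64 had 1 to 4 cDNAs in the 4 libraries together, 15 had 5 to 9 and 9 had 10 or more. Only 14 of the 88 were found in both Mkt1-HTP libraries. A further 32 were found in Mkt1-HTP replicate 1 alone, 32 in replicate 2 alone and 8 in a control library alone. SPNCRNA.1095 was the 1 RNA found in both control libraries.

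None of the 9 RNAs with 10 or more cDNAs passed the test in either direction. edgeR's quasi-likelihood test over all 418 genes with 10 or more cDNAs called 13 genes higher in Mkt1-HTP (3.11%) and 7 lower (1.67%) at an adjusted p under 0.05, and 0 of the 9 noncoding RNAs, with a lowest adjusted p of 0.32. At an unadjusted p under 0.05, 1 noncoding RNA was higher (SPNCRNA.1065) and 1 lower (nam3), beside 55 of all 418 genes (13.2%). DESeq2 also called 0, with an adjusted p for 5 of the 9. The median log2 fold change (Mkt1-HTP over control) was -0.13 over the 9 RNAs and 4.77 over all 418 genes. That second value rests on 248 genes with no control cDNA, and among genes with a control cDNA the medians were -0.79 over 6 noncoding RNAs and 0.47 over 170 genes. The order turned where genes with no control cDNA were set against 3 counts in each control library. The medians were then -0.83 over the noncoding RNAs and -1.19 over all genes. With 1 library left out, the counts over all genes were 0 to 26 higher and 3 to 6 lower, and 5 higher and 2 lower with replicate as a block. With cDNAs of mRNA as the library size they were 0 higher and 10 lower, with medians of -2.60 over the noncoding RNAs and 4.56 over all genes.

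SPNCRNA.1095 (III:23919-24438, minus strand, 520 nt) had the most cDNAs of the 9 RNAs tested. It had 102 and 48 in Mkt1-HTP, while the control had 13 and 29, or 4170, 1780, 7460 and 3560 CPM. Control replicate 1 was above both Mkt1-HTP libraries and control replicate 2 between them. The log2 fold change was -0.83 ± 0.89 (SE), with an adjusted p of 0.48 in edgeR's test. SPNCRNA.1094 (III:23658-23889, minus strand, 232 nt) had 52, 62, 0 and 17 cDNAs, or 2130, 2300, 0 and 2090 CPM. Control replicate 2 was just under both Mkt1-HTP libraries and control replicate 1 had none (log2 fold change 0.74 ± 1.07, edgeR adjusted p = 0.61). With cDNAs outside rRNA as the library size, the log2 fold change of SPNCRNA.1094 turned to -1.24, and with cDNAs of mRNA to -2.04.

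Both RNAs are annotated inside the ribosomal DNA repeat, upstream of an 18S gene on the same strand, SPNCRNA.1094 by 528 nt and SPNCRNA.1095 by 789 nt. A cDNA of an rRNA precursor that reached this far upstream would be counted for them too. The RNA of origin therefore cannot be told apart. Each had 5 copies on chromosome III of the assembly, 1 of them annotated. The other copies held 473 cDNAs for SPNCRNA.1094 and 791 for SPNCRNA.1095, and all of these named no gene in the files. Copies of SPNCRNA.1094 had 100 to 131 cDNAs each and copies of SPNCRNA.1095 had 181 to 224, so the annotated copy was 1 of 5 of similar size. Summed over copies, SPNCRNA.1095 had 575, 206, 71 and 131 cDNAs (2.35%, 0.766%, 4.07% and 1.61% of the library) and SPNCRNA.1094 had 248, 266, 2 and 88 (1.01%, 0.989%, 0.115% and 1.08%). The sums gave log2 fold changes of -0.85 for SPNCRNA.1095 (edgeR adjusted p = 0.49) and 0.63 for SPNCRNA.1094 (adjusted p = 0.55). Which copy a cDNA came from is not known.

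**Figure D2:**
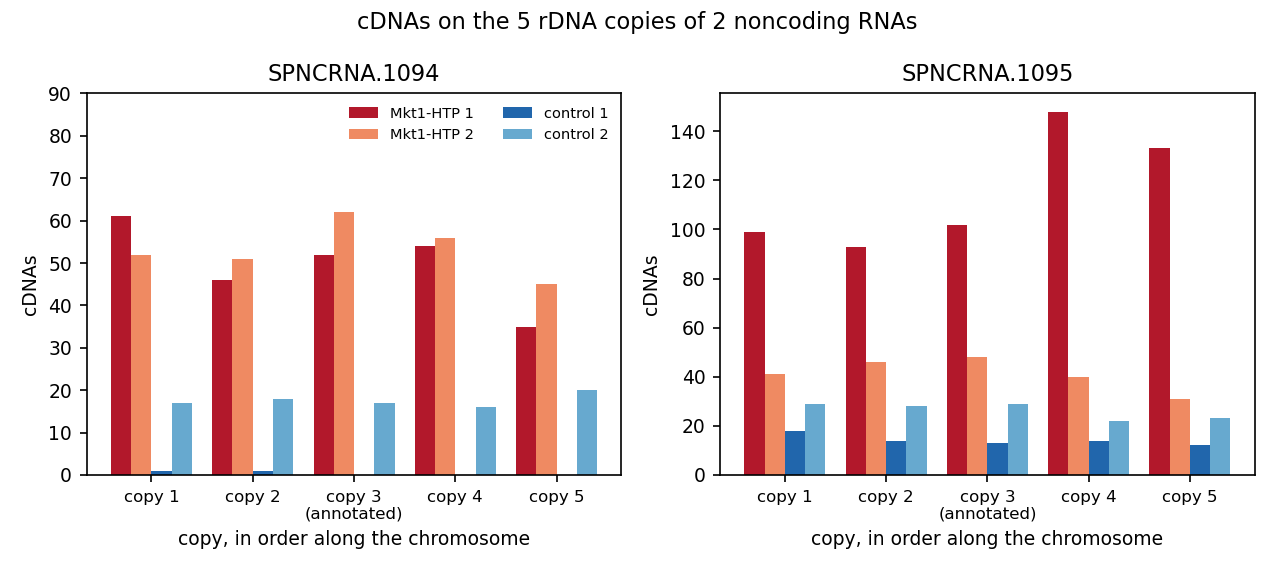
Bars give the number of cDNAs (vertical axis) on each of the 5 copies of SPNCRNA.1094 (left) and SPNCRNA.1095 (right), in order along chromosome III, for the 4 libraries. The annotated copy is the third in each panel, with 131 and 192 cDNAs in all.

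Along SPNCRNA.1095 the cDNAs formed 1 narrow stack. With the RNA cut into 5 equal parts from its 5′ end, the third part held 99 of 102, 38 of 48, 11 of 13 and 28 of 29 cDNAs, and the most covered base was in 169 of 192. The stack stood at the same place in the tagged and untagged libraries. Along SPNCRNA.1094 the last 2 parts held 49 of 52, 54 of 62 and 14 of 17 cDNAs in the 3 libraries that had any. In the window printed above for SPNCRNA.1094, the most often deleted base was missing from 3 of 42 and 7 of 52 cDNAs in Mkt1-HTP and from 2 of 15 in control replicate 2. Counted once where ends lay within 5 nt of each other, SPNCRNA.1095 had 43 distinct intervals in all and SPNCRNA.1094 had 59.

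The long RNA prl53 (I:4008054-4009905, minus strand, 1852 nt) had more Mkt1-HTP cDNAs on its own strand than any other noncoding RNA, counting annotated copies only. It was named in 110 and 118 cDNAs of Mkt1-HTP and in 6 and 0 of the control. Every one of these 234 rows also named SPAC27E2.11c, a protein-coding gene of the same strand, so that none entered the test above. The RefSeq extent of SPAC27E2.11c (I:4009573-4009925) touched only 17 of the 234 (7.26%). By RefSeq extents, the other 217 lay beyond it, by up to 1355 nt, and on prl53 only. Their rows still named SPAC27E2.11c, whose extent in the release used for counting was not at hand. The gene of origin therefore cannot be told apart.

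These 217 cDNAs were 105, 106, 6 and 0 by library, or 4290, 3940, 3440 and 0 CPM. The Mkt1-HTP libraries were close to each other and above both control libraries, but control replicate 1 reached its level with 6 cDNAs. With genes taken from the RefSeq extents, an assignment chosen after seeing the data, the log2 fold change was 1.71 ± 1.17 (edgeR adjusted p = 0.48). Without control replicate 1 it was 9.35 with an adjusted p of 2.8e-12, a fitted value against 0 control cDNAs and no bound, so that the call depended on that library. With cDNAs outside rRNA or cDNAs of mRNA as the library size it turned to -0.15 and -0.79. By total cDNAs, prl53 would rank 24 among the genes tested.

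The 217 cDNAs on prl53 only were spread along the RNA rather than stacked. The 17 that touched SPAC27E2.11c were left out. Its RefSeq extent covers the 5′ end of prl53, so the low counts of the first part follow from the assignment. From the 5′ end, the 5 equal parts of the RNA held 2, 38, 29, 28 and 8 cDNAs in Mkt1-HTP replicate 1 and 5, 26, 13, 34 and 28 in replicate 2. The most covered base was in 32 of 217 cDNAs. Counted once where ends lay within 5 nt, 44 and 45 distinct intervals remained in Mkt1-HTP and 2 in control replicate 1. No base was deleted often in both libraries, and the base most often deleted was missing from 9 of the 11 cDNAs that covered it in replicate 1 and was not covered in replicate 2.

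A second polyadenylated RNA, prl3 (I:237074-237848, minus strand, 775 nt), had 18 and 19 cDNAs in Mkt1-HTP and 0 in both control libraries. These were 736 and 706 CPM. No fold is given, since their mean of 721 CPM was under the level that 3 counts in each control library would give (a floor of 1040 CPM as a mean of the libraries). The Mkt1-HTP libraries were close to each other. All 37 rows also named SPAC806.11 on the same strand, and its RefSeq extent overlapped 32 of them, so the gene of origin cannot be told apart. The cDNAs lay in the 3′ part, with 13 and 13 in the fourth of 5 equal parts, and they came from 11 distinct intervals. SPNCRNA.133 (II:527043-528366, plus strand), which shares its strand with fhn1, had 23, 0, 0 and 0 cDNAs, all in 1 library.

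**Figure D3:**
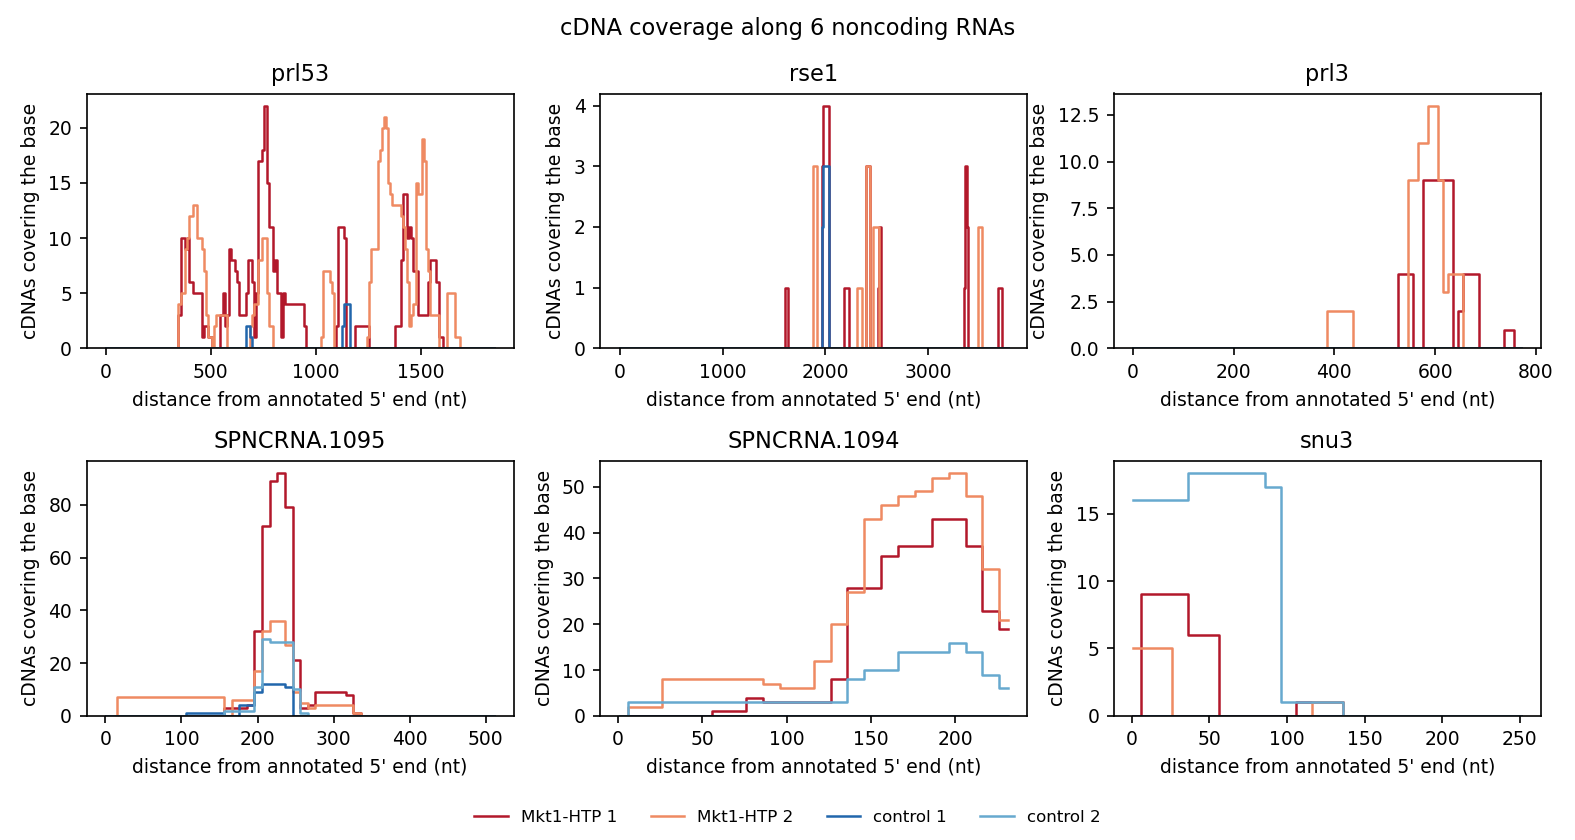
Lines give the number of cDNAs covering each base (vertical axis, sampled every 10 nt) against the distance from the annotated 5′ end of the RNA (horizontal axis, nt) for 6 RNAs and 4 libraries. Coverage of prl53 is drawn without cDNAs that touch SPAC27E2.11c, which leaves its 5′ end empty, and is spread over most of the rest. That of SPNCRNA.1095 forms 1 stack in all 4 libraries, and that of snu3 lies at the 5′ end.

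Of 11 small structural RNAs that were looked up, 6 had a cDNA on their strand (25, 14, 0 and 19 cDNAs together) and 1 was tested. This was snu3 (I:987570-987825, minus strand), a U3 RNA, which takes part in early processing of the ribosomal RNA precursor. It had 10, 6, 0 and 19 cDNAs, or 409, 223, 0 and 2330 CPM. Control replicate 2 was above both Mkt1-HTP libraries and control replicate 1 had none, so the groups overlapped. The log2 fold change was -2.16 ± 1.21 (edgeR adjusted p = 0.38). Without control replicate 1 it was -2.87 (adjusted p = 0.001), and without control replicate 2 it turned to 5.51 (adjusted p = 0.63). The cDNAs lay at the 5′ end, with 9 of 10, 5 of 6 and 16 of 19 in the first of 5 equal parts, and they came from 11 distinct intervals. Those of the control reached further into snu3. Base 61 from the 5′ end was covered by 18 cDNAs of control replicate 2 and by 0 of either Mkt1-HTP library, and base 21 by 16 of control replicate 2 and by 9 and 5 of Mkt1-HTP.

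The other small structural RNAs were seen only in Mkt1-HTP, at levels under the floor of the control. The 7SL RNA srp7 had 4 and 3 cDNAs, the spliceosomal RNAs snu2, snu5 and snu6 had 3 and 2, 1 and 1, and 4 and 0, and the second U3 RNA snu32 had 3 and 2. The remaining 5 (rrk1, the RNA of RNase P; mrp1, the RNA of RNase MRP; the telomerase RNA ter1; and snu1 and snu4) were named in 0 rows. Among nucleolar RNAs with SPSNORNA names, 11 were the only named gene on the strand of a cDNA, and none of these was found in both libraries of a group. The most recovered was snR30 (I:3394875-3395200, plus strand), needed for 18S rRNA processing, with 0, 10, 0 and 4 cDNAs (0, 372, 0 and 491 CPM). Its groups overlapped (log2 fold change -0.76 ± 1.94, edgeR adjusted p = 0.78). It was followed by sno52 with 0, 4, 3 and 0.

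A pair of long RNAs with names of their own reached the minimum for a test. The RNA rse1 (II:3978331-3982106, minus strand, 3776 nt) had 15, 11, 3 and 0 cDNAs, or 613, 409, 1720 and 0 CPM. The Mkt1-HTP libraries lay between the 2 control libraries (log2 fold change -0.13 ± 1.64, edgeR adjusted p = 0.96), and the direction turned under 5 alternatives. Its 29 cDNAs came from 16 distinct intervals, and none lay in the first 2 of 5 equal parts. Of the 3 control cDNAs, 2 repeated an interval of Mkt1-HTP replicate 1.

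The second, nam3 (II:4464625-4466286, minus strand), named for its association with the RNA elimination factor Mmi1, had 6, 1, 6 and 0 cDNAs, or 245, 37.2, 3440 and 0 CPM. The high value of control replicate 1 came from 6 cDNAs in 1 distinct interval. The log2 fold change was -3.17 ± 1.45 (edgeR adjusted p = 0.32), and without control replicate 2 it was -4.56 with an adjusted p of 4.7e-05. Of the other named regulatory RNAs looked up, omt3 had 1 cDNA, and sme2, prt2, nc-tgp1 and adh1AS were named in 0 rows.

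Several RNAs owed their count to 1 library. SPNCRNA.388 (II:2115592-2117167, plus strand) had 14, 0, 0 and 0 cDNAs in 4 distinct intervals, and SPNCRNA.1368 (II:536739-539154, minus strand) had 0, 11, 0 and 0 in 2. Their group means of 286 and 204 CPM were under the floor of 1040 CPM, so no fold is given (edgeR adjusted p = 0.48 for both). In SPNCRNA.1368, 9 of 11 cDNAs lacked the base in capitals at the end of the window printed above. Of the 15 RNAs with 5 to 9 cDNAs, 9 were seen in 1 Mkt1-HTP library only and SPNCRNA.1236 in control replicate 1 only (5 cDNAs). SPNCRNA.872 (I:3001750-3004335, minus strand) had 3 and 6 cDNAs in Mkt1-HTP and 0 in the control.

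**Figure D4:**
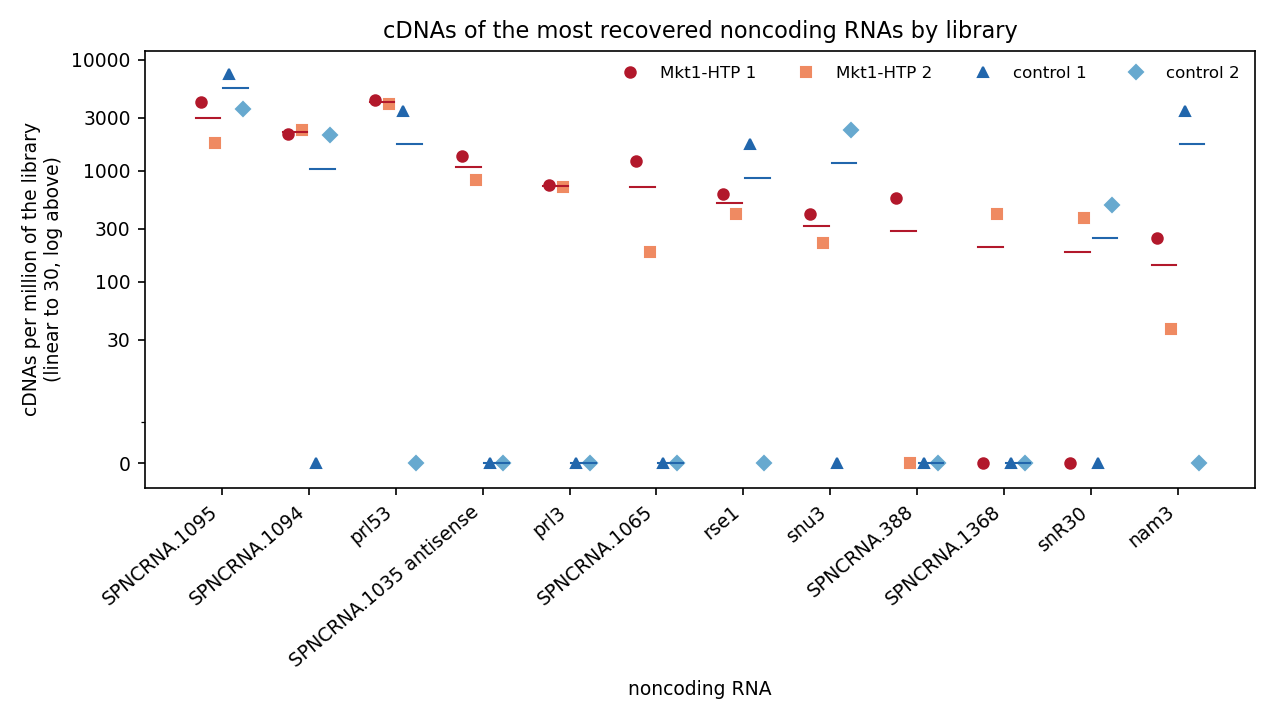
Points give CPM (vertical axis, linear up to 30 and logarithmic above) for 12 noncoding RNAs in each of the 4 libraries, and short lines give the group means. Of these, SPNCRNA.1094, prl53, prl3, SPNCRNA.1065 and the cDNAs opposite to SPNCRNA.1035 had both Mkt1-HTP libraries above both control libraries. The means of prl3 and SPNCRNA.1065 were under the control floor of 1040 CPM. Summed over copies, SPNCRNA.1094 was higher in control replicate 2 (1.08%) than in Mkt1-HTP (1.01% and 0.989%). Of all 418 genes tested, 248 had no control cDNA, and any of these with cDNAs in both Mkt1-HTP libraries has this order. The share of all tested genes with this order was not counted, so the order is no trait of the RNAs shown.

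A separate set of rows lay on genomic runs of A, and these were seen in Mkt1-HTP only. A cDNA was put in this set where at least 80% of its bases were A in the reference on its strand, with a run of 15 or more. They numbered 113 and 52 in Mkt1-HTP (4.64% and 2.69% of the noncoding RNA rows) and 0 of 62 and 0 of 139 in the control, for which Wilson intervals reach 5.83% and 2.69%. Over whole libraries, cDNAs on runs of A numbered 768, 264, 0 and 6 (3.14%, 0.981%, 0% and 0.0737%). Those that named noncoding RNAs had a median length of 36 nt, and 0 of the 165 had a deletion.

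The most recovered of these sites was opposite to SPNCRNA.1035 (I:4911086-4911440, plus strand), with 33, 22, 0 and 0 cDNAs or 1350, 818, 0 and 0 CPM. All 55 lay on the run of A, which in the reference is 35 bases long. The mean of 1080 CPM was at least 1.04-fold higher than the control at the floor of 3 counts in each library, and replicate 2 alone, at 818 CPM, was under that floor. The window crosses the annotated 3′ end of SPNCRNA.1035 and runs beyond it. With opposite strands added to the table of genes as features of their own, edgeR's adjusted p was 0.15. The site opposite to SPNCRNA.1411 and SPNCRNA.338 followed with 26 and 14 cDNAs in Mkt1-HTP. These named cyp3 on their strand, although 0 of the 57 rows that named SPNCRNA.338 with cyp3 touched the RefSeq extent of cyp3. SPNCRNA.1065 (I:5271336-5272361, minus strand) had 30, 5, 0 and 0 cDNAs on its own strand, or 1230, 186, 0 and 0 CPM, all on a run of A. Its mean of 706 CPM was under the floor, so no fold is given (edgeR adjusted p = 0.32). The site opposite to SPNCRNA.1639 had 3 and 6 cDNAs in Mkt1-HTP. Each window, with the bases flanking its run, had no other exact copy on the nuclear chromosomes. That does not show that cDNAs made mostly of A came from these sites, and their origin was not tested.

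Few cDNAs lay opposite to a noncoding RNA with no gene on their own strand, and many of these lay on the runs of A. With runs of A included, 21 RNAs were named alone by a cDNA of the opposite strand, through 64, 54, 0 and 5 cDNAs. Among these, all that lay opposite to SPNCRNA.1035 and SPNCRNA.1639 were on runs of A. After SPNCRNA.1035, the most frequent were SPNCRNA.608 (9, 1, 0 and 0), SPNCRNA.1639 and SPNCRNA.322 (0, 9, 0 and 0), then SPNCRNA.477 (4, 2, 0 and 0). Of these 5, SPNCRNA.1035 was the only one whose mean exceeded the floor of the control.

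Deletions were more frequent in replicate 2 of both groups. Of the cDNAs with a noncoding RNA as the only named gene on the strand, 16 of 336 (4.76%) and 51 of 263 (19.4%) carried a deletion in Mkt1-HTP, and 1 of 32 (3.12%) and 5 of 82 (6.1%) did in the control. Over whole libraries the shares were 13% and 25.3% in Mkt1-HTP, while the control had 12.3% and 27.7%.

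A list of noncoding RNAs with an altered level in cells without Mkt1 was looked up among the crosslinked cDNAs. The list, from RNA sequencing of other samples, had 52 RNAs, and all 52 are in the annotation. Of these, 5 (9.62%) were named in any row, and 3 (5.77%) had a cDNA on their own strand, with 2, 4, 0 and 0 cDNAs together. Over all 7243 noncoding RNAs of the RefSeq annotation, 278 (3.84%) were named and 115 (1.59%) had a cDNA on their own strand. The release used for the files held far fewer, going by the share of noncoding RNAs that the paper reports as altered. Both shares are therefore too low as a background, and the list cannot be read as above it. A comparison within that release was not tested. The 3 from the list were omt3 and SPNCRNA.1124 with 1 cDNA each in Mkt1-HTP replicate 1 and prl32 with 4 in replicate 2. SPNCRNA.346 and SPNCRNA.1023 were named by 1 and 3 cDNAs of the opposite strand. None reached the minimum for a test. At this depth a count of 0 allowed shares of up to 0.0123% and 0.0112% of the Mkt1-HTP libraries for each of the others.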

How the data were processed

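Per the methods and file headers, the authors trimmed, demultiplexed and deduplicated reads (Flexbar, pyCRAC), took out tRNA reads using STAR 2.7.1a, aligned the rest to ASM294v2 with Novoalign 3.09.02 and counted with pyReadCounters (Counters 1.4.4). The deposited files hold counts, 1 per distinct cDNA, so abundant RNAs are held back, and the gene field names genes on both strands.

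Each cDNA was given to the 1 named gene on its strand by the RefSeq annotation (ASM294v3, nuclear chromosomes, 5000 nt tolerance). Of 8799 pairs of row and gene, 8097 (92%) overlapped, and 26 of the 304 RNAs could not be placed. Genes with 10 or more cDNAs were tested with edgeR 4.0.16 (quasi-likelihood, all cDNAs as library size, Benjamini-Hochberg, threshold 0.05) and DESeq2 1.42.0 in R 4.3.3, after a test on simulated data. Single shares used an exact permutation test (scipy 1.17.1). Copies were found with BLAST+ 2.17.0 (at least 90% of the RNA aligned).

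The labels give same-numbered libraries of the 2 groups 1 shared index, and their deviations from the group means correlated by 0.0846 over 418 genes. RNAs were named if they had 10 or more cDNAs, were among the 10 most often named with a coding gene or the 5 most often in antisense, or stood on a list; those others given were chosen after their values were seen. Members and lists were chosen with earlier results of these data known. Fits with 1 library left out take the spread of the lone library from the other group.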

Additional observations from a re-analysis of the deposited data

How the results depend on the processing

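Depth limits these comparisons, with 302 and 1124 control cDNAs outside rRNA, as do the 2 libraries per group. Of 228 alternative values for 15 results, 206 kept their direction and their side of the threshold. Many of these could hardly come out otherwise, so the number is no measure of robustness. SPNCRNA.1065, SPNCRNA.388 and SPNCRNA.1368 had no control cDNA on their strand, which all but fixed their direction. The permutation test of the shares cannot pass the threshold with 2 libraries per group. With rRNA left out of the denominator, the difference in the share of noncoding RNA rows turned to -1.91 percentage points. The difference in the share assigned in sense turned to 0.137 where any RNA on the strand counted and to 0.00552 with RefSeq extents (chosen after seeing the data, as were the sums over copies and the removal of runs of A or of met26 and ser3), and ranged from -0.66 to 0.168 with 1 library left out. With 1 library left out, the other shares differed by 4.54 to 7.33 and by -48.1 to -27.4 points. The number called higher in Mkt1-HTP was 0 under each alternative, apart from prl53 with RefSeq extents and control replicate 1 left out. The number called higher in the control was 1 (SPNCRNA.1236) with a minimum of 5 cDNAs, and 0 to 1 with 1 library left out (snu3 or nam3).

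With the replicate block, 0 noncoding RNAs were called either way, as without it. Calls over all genes went from 13 higher and 7 lower to 5 higher and 2 lower. The log2 fold change of rse1 turned to 0.52 with the block. It also turned to 0.01 with a minimum of 20 cDNAs, to 0.27 with near-identical intervals counted once and to 1.30 without shared control intervals. SPNCRNA.1094 turned to -1.24 with cDNAs outside rRNA and to -2.04 with cDNAs of mRNA as library size, and prl53 to -0.15 and -0.79. With 1 library left out, rse1 ranged from -1.74 to 6.36, snu3 from -2.87 to 5.51, snR30 from -1.36 to 4.78, nam3 from -4.56 to -2.63, SPNCRNA.1094 from 0.09 to 8.30 and prl53 from 0.26 to 9.35. The causes were not tested.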
